A study of Mus musculus with 4 samples.

Results

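The cytosolic ribosomal protein genes are the protein-coding parts list of the cytoplasmic ribosome. They were followed here in total RNA from mouse kidneys taken 2 weeks after bile duct ligation (BDL), an operation that blocks bile flow out of the liver, or after a sham operation. Each group held 2 animals, described in the series as biological replicates, and the Cy3-labelled RNA of each animal was put on a 1-colour Agilent array of its own, which gives 4 arrays on 1 slide. The labels give the tissue and the operation, and strain, sex and age are not given in the sources used here. A probe was taken as a member where its RefSeq accession names a gene whose symbol is Rpl or Rps plus a digit, Rplp0, Rplp1, Rplp2 or Rpsa. The Rps6k kinases, Rps19bp1 and pseudogenes were left out. That gave 86 of the 20656 named genes, 53 of the large and 33 of the small subunit, on 175 of the 55668 probes analysed.

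The large subunit forms peptide bonds and the small subunit reads the mRNA, and each needs its proteins in fixed proportion. Ribosomal protein mRNAs are therefore made in step with each other and are among the most abundant in most tissues. In mammals most of them begin with a terminal oligopyrimidine (TOP) tract, a C followed by further C and T bases, through which mTORC1 signalling and the La-related protein Larp1 control their translation. In the kidney, as elsewhere, their output is linked to cell growth and to the supply of amino acids.

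Values are log2 processed signals minus the 75th percentile of the same array, called levels here, and a difference is a BDL mean minus a sham mean on that log2 scale. Of the spots of an array, 57.7% to 63.1% gave signal well above background and 0 reached saturation. Proximal tubule, distal tubule, collecting duct and podocyte markers were well above background on all 4 arrays, as the label kidney requires. BDL replicate 1 stood apart from the other arrays in several cell type markers and in the ribosomal protein genes. Whether a shift comes from more cells of a type or from more RNA per cell cannot be told apart in whole tissue.

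No ribosomal protein gene passed the test between BDL and sham kidneys. Of the 84 genes tested, 0 had an adjusted p under 0.05 with limma and Benjamini-Hochberg adjustment over all 24043 features, against 0% of all features. The lowest adjusted p among them was 0.872. An unadjusted p under 0.05 was reached by 0 of them too, against 5.62% of all features. The genes lay mostly a little higher in BDL, by a median of 0.14, while the median over all features was -0.01. Their differences were positive in 63 genes and negative in 21, and 48.6% of all features had a positive difference. This shift rested on 1 array: without BDL replicate 1 the median was -0.06, and without BDL replicate 2 it was 0.35.

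The differences were also small for nearly every member. They lay within 0.25 of 0 in 69 of the 84 genes, or 82.1%, against 56.7% of all features, and the interquartile range ran from 0.00 to 0.21, against -0.23 to 0.20 over all features. Only Rpl13a and Rps3 differed by more than 0.5. For 74 genes the 95% interval of the difference stayed inside a 2-fold change in either direction, which held for 59.9% of all features. The interval reached further in 10 genes, among them Rpl13, Rpl13a, Rpl14, Rpl3l, Rplp1, Rps18, Rps27, Rps3 and Rps4x, a group read off the intervals after they were seen.

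**Figure D1:**
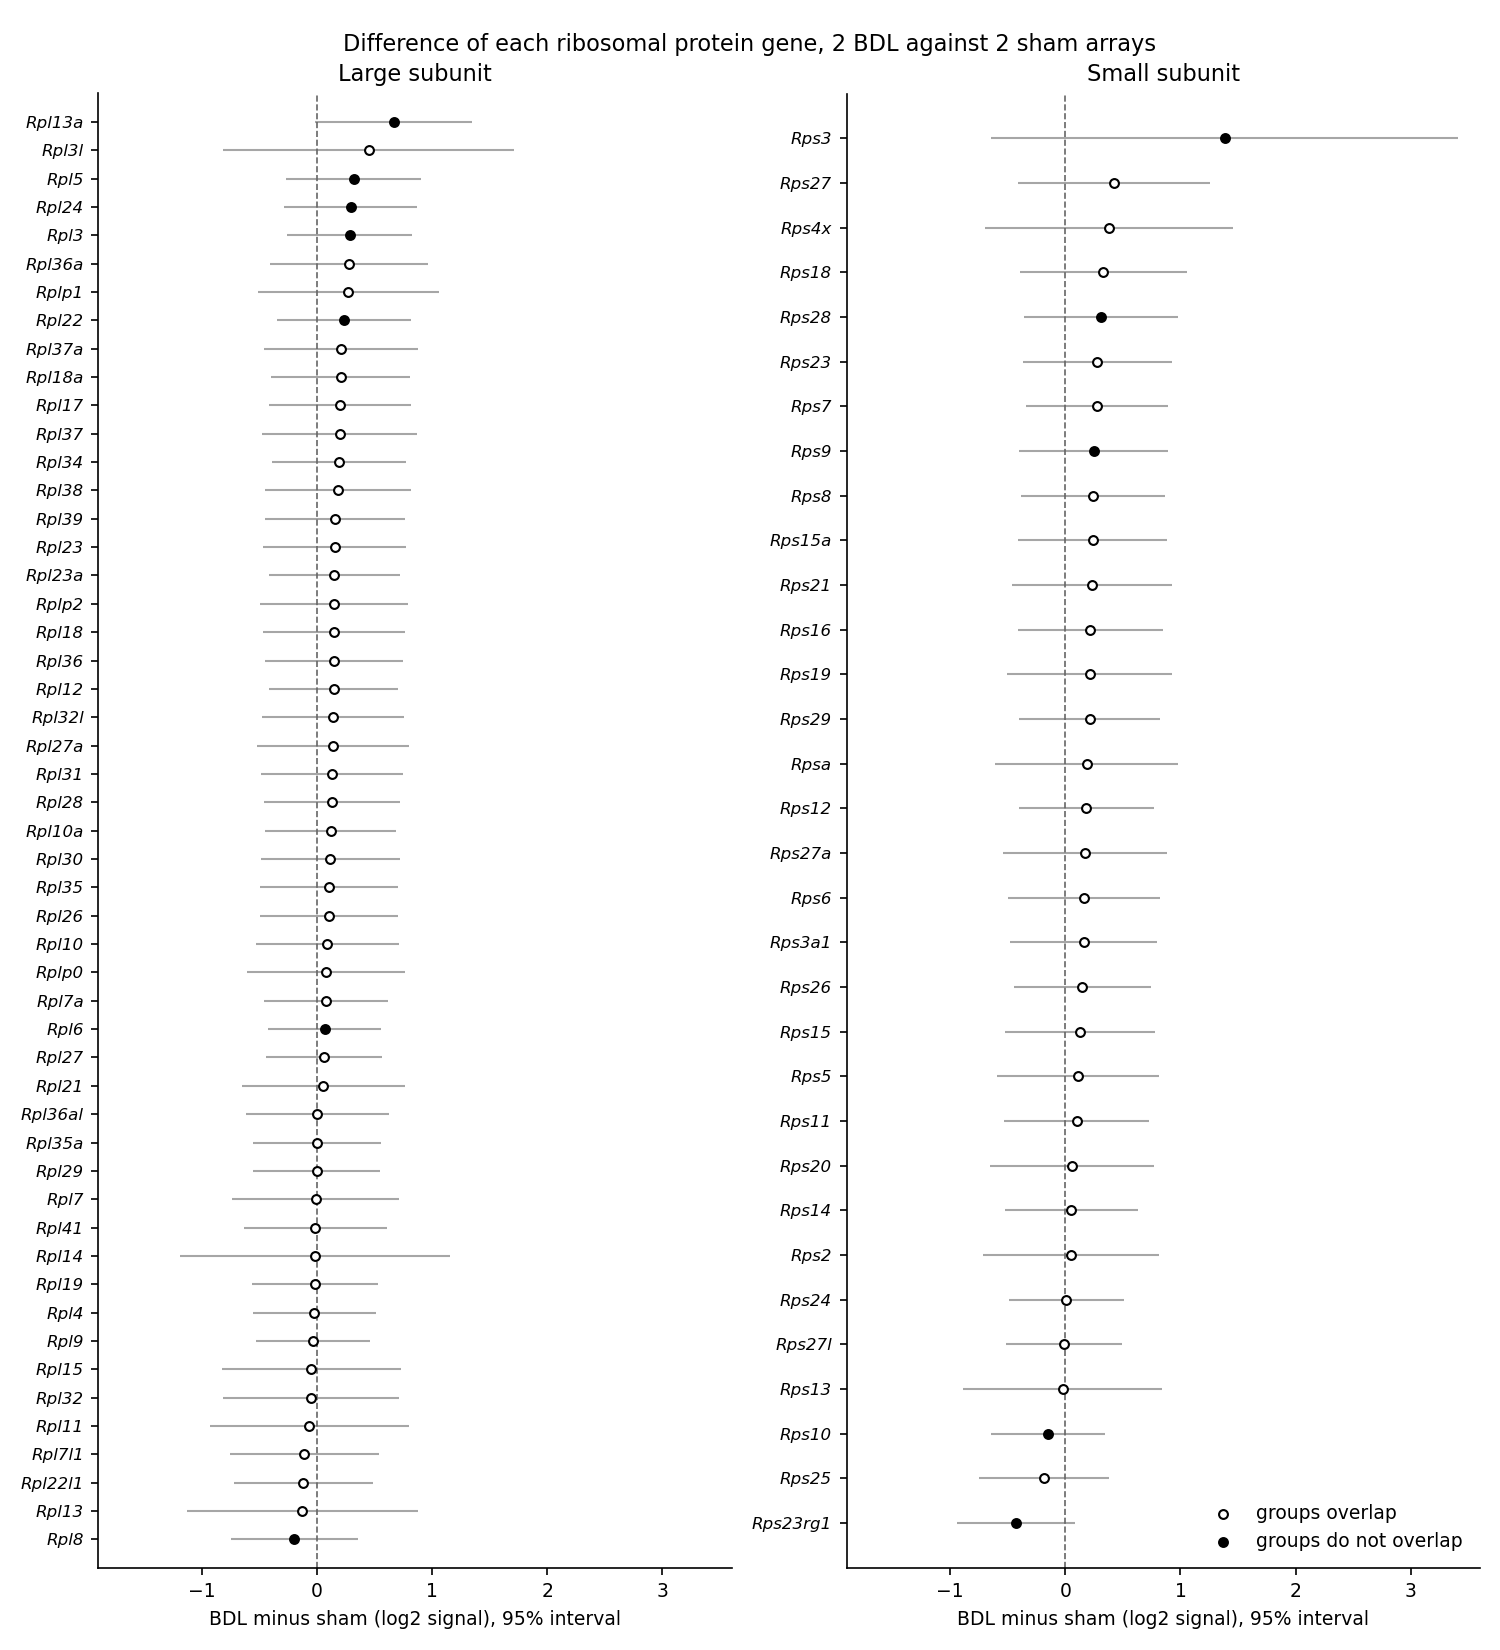
Difference between BDL and sham for each ribosomal protein gene (BDL minus sham, log2 signal), with the 95% interval of the limma fit as a grey bar, for the large subunit (left, 51 genes) and the small subunit (right, 32 of the 33 genes). Filled points mark the 12 genes whose 2 BDL arrays lay both above or both below the 2 sham arrays. The interquartile range of the differences is 0.00 to 0.21, and Rps3, at 1.39, has the widest interval.

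The subunits had similar values. The median difference was 0.12 for the 51 large subunit genes tested and 0.17 for the 33 small subunit genes, so the large minus small value was -0.05. That value was negative without each array in turn (-0.10 to -0.02) and turned to 0.01 where all retained probes of a gene were averaged, so the data give no settled order of the subunits. Positive differences were found in 36 of 51 large and 27 of 33 small subunit genes.

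The clearest feature of the ribosomal protein genes was an array and not a group. BDL replicate 1 lay above BDL replicate 2 in 78 of 84 genes, or 92.9%, while over all features the share was 49.7%. The median gap between these animals was 0.39, with an interquartile range from 0.32 to 0.53, against -0.00 over all features. Between the sham animals, replicate 1 lay above replicate 2 in 66 genes, or 78.6% (55.9% of all features), with a median gap of 0.09 (0.06 over all features).

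Set against the sham mean of each gene, the median ribosomal protein gene stood at 0.35 on BDL replicate 1 and -0.06 on BDL replicate 2, against 0.05 and -0.05 in the sham animals. BDL replicate 1 was the highest of the 4 arrays in 75 genes, and BDL replicate 2 the lowest in 41. BDL replicate 1 lay above both sham arrays in 75 genes, against 31.9% of all features. BDL replicate 2 lay within the range of the sham arrays in 32 genes, above both in 10 (28.7% of all features) and below both in 42 (31.9% of all features). In 38 genes BDL replicate 1 lay above and BDL replicate 2 below both sham animals. In 12 genes the BDL animals lay on the same side of both, against 36.6% of all features. For the counts of the highest array, the lowest array and the 38 genes, no share of all features is given here.

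**Figure D2:**
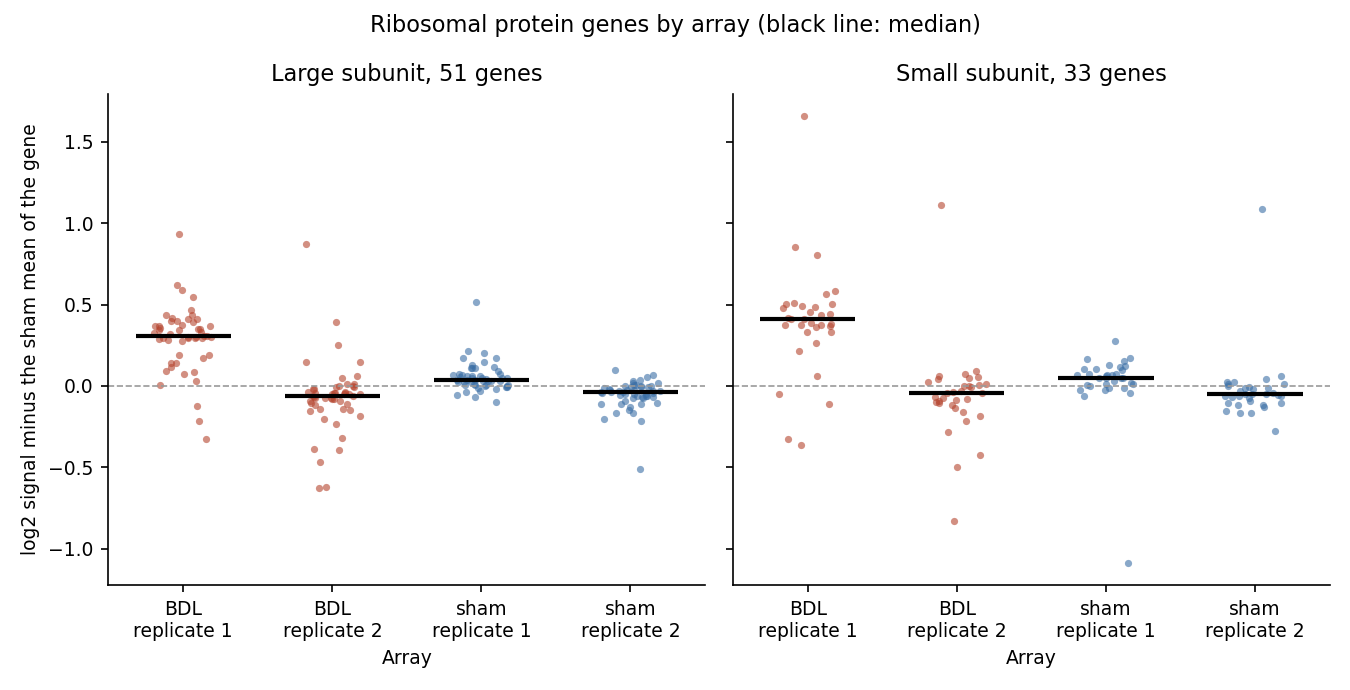
Levels of the ribosomal protein genes on each array, as log2 signal minus the sham mean of the same gene, for the large (left) and small (right) subunit; each point is a gene and each black line a median. On BDL replicate 1 the medians are 0.31 and 0.41, while on BDL replicate 2 they are -0.06 and -0.04, close to the sham arrays.

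Both subunits took part in the gap. It was positive in 47 of 51 large subunit genes, with a median of 0.38, and in 31 of 33 small subunit genes, with a median of 0.48. The scaling set its size: with quantile normalization the median gap was 0.21 between the BDL arrays and -0.13 between the sham arrays, and with scaling to the array median it was 0.43 between the BDL arrays and 0.19 between the sham arrays. Before any scaling the median log2 signal of the genes was 16.62 and 16.43 on the BDL arrays and 16.26 and 16.42 on the sham arrays, so BDL replicate 1 was also the brightest there.

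The gap between the BDL animals reached 0.8 in 6 genes, and those described here were chosen because of that value. Rpl14 had levels of 7.80 and 6.59 in the BDL kidneys, against 7.15 and 7.28 in the sham kidneys. Its sham animals lay between the BDL animals, and the same held for Rpl13 (7.39 and 6.39 in BDL, 7.04 and 6.999 in sham), Rpl11 and Rps13. Rps4x, the X-linked small subunit gene, differed in that the sham animals were also far apart, with 6.21 and 5.26 in BDL and 5.63 and 5.07 in sham.

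In 6 genes BDL replicate 1 was not the higher of the BDL arrays, and 4 of these are paralogs of standard ribosomal proteins: Rpl3l (gap -0.84), Rpl7l1 (-0.21), Rps27l (-0.07) and Rpl22l1 (-0.00). The other 2 were Rps25 (-0.29) and Rpl8 (-0.26), on the probe used for each. Their other retained probes were higher on BDL replicate 1. Those had -2.00 and -2.40 in BDL for Rps25, and 6.45 and 5.75 for Rpl8. These genes too were picked by their values, and no test was made of them.

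**Figure D3:**
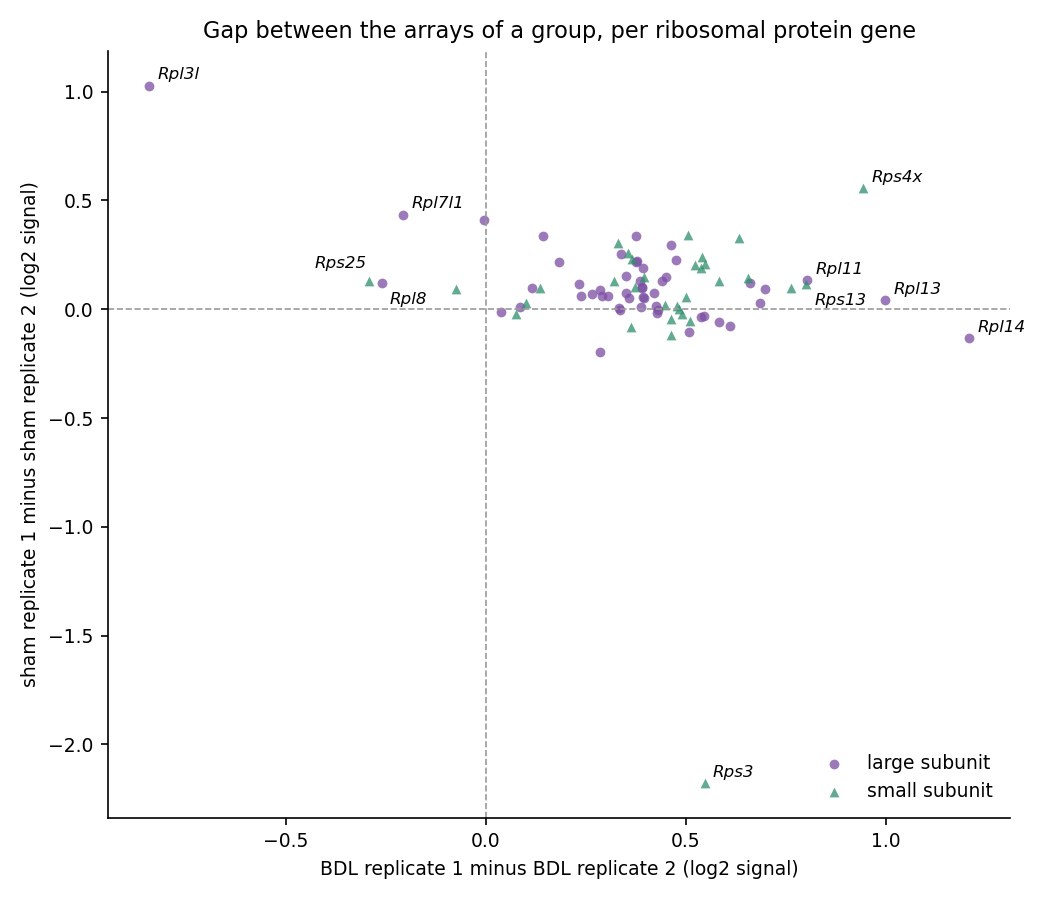
Gap between the 2 animals of a group for 83 of the 84 ribosomal protein genes tested, with BDL replicate 1 minus BDL replicate 2 on the horizontal axis and sham replicate 1 minus sham replicate 2 on the vertical axis (log2 signal); circles are large and triangles small subunit genes. The cloud lies right of 0, around a BDL gap of 0.39 and a sham gap of 0.09, with Rpl14 farthest right and Rps3 alone at a sham gap of -2.18.

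Markers of several other cell types also differed on BDL replicate 1, some higher and some lower. All 6 urothelial markers (Upk1a, Upk1b, Upk2, Upk3a, Krt5 and Krt20) were higher there than on BDL replicate 2, by a median of 6.01, and their summed level in log2 was 5.85 and 0.33 in the BDL kidneys, against 1.43 and 3.01 in the sham kidneys. Of 4 adipocyte markers 2 were tested, Cfd and Fabp4, which summed to 7.34 and 3.82 in BDL and to 3.84 and 4.88 in sham, while Adipoq and Plin1 were not well above background on BDL replicate 2 or sham replicate 2. All 8 red blood cell markers tested were higher on BDL replicate 1 than on BDL replicate 2, with a summed level of 10.58 and 9.76 in BDL against 9.57 and 9.27 in sham. The 4 neutrophil markers tested were also all higher there, with sums of 4.97 and 4.03 in BDL against 4.12 and 1.81 in sham. The 5 B and plasma cell markers tested were all lower there than on BDL replicate 2, with sums of -0.20 and 0.36 in BDL against 1.24 and 0.47 in sham. By contrast, all 6 T and NK cell markers tested were higher on BDL replicate 1 than on BDL replicate 2. They summed to 3.05 and 2.82 in BDL and to 3.49 and 2.88 in sham. All 3 intercalated cell markers were also higher there, with sums of 5.40 and 5.07 in BDL against 4.55 and 4.59 in sham. Slc4a1 stood in both this list and the red blood cell list, and its highest level, 3.06, was on sham replicate 2. The 7 macrophage and dendritic cell markers tested summed to 5.12 and 5.21 in BDL and to 5.72 and 5.41 in sham. The brightest of them, Csf1r, had 4.86 and 4.92 in BDL and 5.40 and 5.27 in sham. In the other markers of that list the groups overlapped, and the median difference of the 7 was -0.08. The 10 interferon response genes tested summed to 3.21 and 2.82 in BDL and to 4.93 and 3.55 in sham. The part of these cells in the ribosomal protein values was not tested.

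Few ribosomal protein genes separated the groups. Both BDL arrays lay above both sham arrays in 9 genes, against 17.4% of all features, and below both in 3 genes, against 19.2%. Together this is 12 of 84 genes, or 14.3%, against 36.6% of all features in either direction. With quantile normalization 41 genes lay higher without overlap and 1 lower, against 19.3% and 18.1% of all features, so this split depends on the scaling.

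Of the large subunit, 6 genes lay higher in BDL without overlap. Rpl13a, which in human cells can leave the ribosome after interferon treatment to silence inflammatory mRNAs, had levels of 6.88 and 6.34 in BDL, against 5.93 and 5.97 in sham. Its difference was 0.66 ± 0.26 (SE, n = 2 each, 1.59-fold; adjusted p = 0.872 by limma), the smallest p of the 84 genes at 0.0538 before the adjustment, and without BDL replicate 1 it was 0.40. Both BDL animals stood clear of the sham animals on this probe, which the other probes of Rpl13a did not repeat, as described below. Rpl5, which carries the 5S ribosomal RNA into the large subunit, had 5.27 and 5.12 in BDL and 5.04 and 4.71 in sham, a difference of 0.32. Rpl24, which bridges the subunits, had 7.33 and 7.04 in BDL and 6.80 and 6.99 in sham, a difference of 0.29. In both genes the lower BDL array was close to the higher sham array, and without BDL replicate 1 the differences were 0.25 and 0.15.

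Rpl3, which lies close to the peptidyl transferase centre, had 6.68 and 6.42 in BDL and 6.30 and 6.23 in sham, a difference of 0.28. Rpl22, known for its role in T cell development in mice, had 6.74 and 6.39 in BDL and 6.36 and 6.29 in sham, a difference of 0.24. Without BDL replicate 1 the differences were 0.15 for Rpl3 and 0.06 for Rpl22. Rpl6 was the sixth, with a difference of 0.07. The only large subunit gene below both sham arrays was Rpl8, a protein of the peptidyl transferase region. It had 7.07 and 7.33 in BDL against 7.46 and 7.34 in sham, so BDL replicate 2 was close to sham replicate 2. The difference was -0.20, and -0.07 without BDL replicate 1. On the other Rpl8 probe the groups overlapped. That probe had 6.45 and 5.75 in BDL and 6.05 and 6.04 in sham, a difference of 0.05. Adjusted p-values of Rpl5, Rpl24, Rpl3, Rpl22, Rpl6 and Rpl8 (limma) ran between 0.877 for Rpl5 and 0.961 for Rpl6, so none passed the test.

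Of the small subunit, Rps3, Rps28 and Rps9 lay higher in BDL without overlap. Rps3 sits at the mRNA entry channel and also binds damaged DNA. It had 5.52 and 4.97 in BDL, against 2.77 and 4.95 in sham, and a difference of 1.39 ± 0.77 (SE, n = 2 each; adjusted p = 0.872 by limma). That difference came from the low sham replicate 1: without it the value was 0.30. Rps28 had 7.90 and 7.39 in BDL and 7.31 and 7.37 in sham, a difference of 0.31, and Rps9, which helps to keep decoding accurate, had 7.46 and 6.98 in BDL and 6.98 and 6.98 in sham, a difference of 0.25. In both, BDL replicate 2 was close to the higher sham array and without BDL replicate 1 the differences were 0.06 for Rps28 and 0.0043 for Rps9.

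Rps10 and Rps23rg1 lay lower in BDL without overlap. Rps23rg1, a mouse retrogene copied from Rps23, is a member by its symbol alone, and whether its product is a ribosomal protein was not examined. It had -0.47 and -0.60 in BDL, against -0.06 and -0.15 in sham. Its difference was -0.43 ± 0.19 (SE, n = 2 each, 1.35-fold lower; adjusted p = 0.872 by limma). Its parent Rps23 had 7.28 and 6.82 in BDL and 6.71 and 6.83 in sham, so the groups overlapped there. Rps10, a protein of the head of the small subunit that is mutated in some cases of human Diamond-Blackfan anaemia, had 7.60 and 7.52 in BDL and 7.70 and 7.72 in sham, a difference of -0.15. Rps10 and Rps23rg1 held their sign without each array in turn, at -0.19 to -0.11 and -0.50 to -0.36.

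The stalk proteins, which recruit the elongation factors, followed the common array pattern. Rplp0, the stalk base, had 8.27 and 7.81 in BDL and 8.11 and 7.82 in sham, a difference of 0.08. Rplp1 had 7.61 and 6.91 in BDL and 7.04 and 6.94 in sham, a difference of 0.27, and Rplp2 had 8.16 and 7.71 in BDL and 7.86 and 7.71 in sham, a difference of 0.15. In all 3 genes BDL replicate 1 was the highest and BDL replicate 2 the lowest array, and all 3 differences turned negative without BDL replicate 1.

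The same order held for other members with roles outside the core reaction. Rps6, the substrate of the S6 kinases below mTORC1, had 7.16 and 6.66 in BDL and 6.78 and 6.72 in sham, a difference of 0.16. Rpl10, a late joining protein that completes the large subunit, had 8.63 and 8.24 in BDL and 8.44 and 8.25 in sham, a difference of 0.09. Rpl11, which with Rpl5 can bind Mdm2 and so stabilise p53, had 8.02 and 7.22 in BDL and 7.76 and 7.62 in sham, a difference of -0.07. Rpsa, which is also known as a laminin receptor precursor, deviated slightly, since its lowest level was on sham replicate 2 (7.42 and 6.79 in BDL, 7.09 and 6.76 in sham, a difference of 0.18). The groups overlapped in all 4 genes, and without BDL replicate 1 the differences were -0.09 for Rps6, -0.11 for Rpl10, -0.47 for Rpl11 and -0.13 for Rpsa.

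Several ribosomal proteins have a paralog that can take their place. Rpl22l1, the paralog of Rpl22, had 5.15 and 5.15 in BDL and 5.48 and 5.07 in sham, a difference of -0.12, where Rpl22 had 0.24. Rps27l, a p53 target, had 6.10 and 6.18 in BDL and 6.20 and 6.11 in sham, a difference of -0.01. Its partner Rps27 had 7.94 and 7.18 in BDL and 7.18 and 7.09 in sham, a difference of 0.42 that was 0.04 without BDL replicate 1. In both pairs the standard gene was highest on BDL replicate 1 and the paralog was not.

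Rpl3l, the form of Rpl3 found mainly in striated muscle, was dim, with -2.34 and -1.50 in BDL and -1.85 and -2.88 in sham, a difference of 0.45 with an interval from -0.81 to 1.71. Rpl7l1, a factor of large subunit assembly, had -0.08 and 0.12 in BDL and 0.35 and -0.08 in sham, a difference of -0.11, and Rpl7 itself had 7.34 and 6.73 in BDL and 7.01 and 7.09 in sham, a difference of -0.01. Neither of these paralogs had its peak on BDL replicate 1. Rpl36al did, with 5.61 and 5.23 in BDL and 5.52 and 5.31 in sham, a difference of 0.00, as did the X-linked Rpl36a, with 5.54 and 4.99 in BDL and 4.97 and 5.005 in sham, a difference of 0.27 that was 0.0010 without BDL replicate 1. Adjusted p-values of the paralogs and their partners (limma) were between 0.883 and 0.999.

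Rpl10l and Rpl39l, paralogs made mainly in the testis, were not well above background on any array and were the only members not tested. Rpl39, the partner of Rpl39l, had 6.31 and 5.92 in BDL and 6.01 and 5.91 in sham, a difference of 0.16 that was -0.04 without BDL replicate 1. Rps4l, which RefSeq lists as a transcribed pseudogene and which was therefore left out, had 1.37 and -0.23 in BDL and 1.04 and 1.63 in sham. Its inclusion left the median of the members at 0.14. Its partner Rps4x had a difference of 0.38 that turned to -0.09 without BDL replicate 1.

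More than 1 probe was retained for 51 of the genes, which allowed each to be read again by another probe. The probes of a gene mostly agreed within 0.25 (37 of 51 genes), with a median range of 0.17, yet in 21 genes they differed in sign. The range reached 0.5 in Rpl13, Rpl13a, Rpl17, Rps3 and Rps3a1. The brightest Rpl13a probe gave 0.66, while its other probes gave -0.21 and -0.15, with 3.33 and 2.96 in BDL against 3.36 and 3.35 in sham on one of them. Rps3 gave 1.39 on the probe used and 0.25 on the other, which had 2.18 and 1.81 in BDL and 1.74 and 1.76 in sham, again without overlap. The excesses of Rpl13a and Rps3 past 0.5 were thus each seen on a single probe.

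Rpl17, a protein at the exit tunnel, had 7 retained probes. On 6 of them the difference lay between -0.29 and 0.39. The remaining probe had 1.18 and -1.49 in BDL, against 3.55 and 1.12 in sham, a difference of -2.49 ± 1.20 (SE, n = 2 each; adjusted p = 0.867 in the limma fit over all retained probes). Its 4 arrays were spread over a 33.0-fold range, so the groups overlapped in spite of the size of the difference. Rps3a1 had 5.96 and 5.49 in BDL and 5.55 and 5.59 in sham on the probe used, and 4.33 and 4.32 in BDL against 4.74 and 4.81 in sham on the other. Rpl13 gave -0.13 on the probe used, 0.21 on the next and 0.57 on the third. Ribosomal protein genes have many processed pseudogenes and close copies, so which transcripts each probe reads is uncertain.

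Genes that build, feed and regulate the ribosome were read from lists chosen for their roles, and 0 genes of any list had an adjusted p under 0.05 (limma). Over all features, 48.6% had a positive difference and 36.6% had groups that did not overlap. Of 77 ribosome biogenesis factors, 55 had a positive difference and the median was 0.09. The lowest p-values were those of Npm1, a nucleolar chaperone of ribosome assembly (5.38 and 4.79 in BDL, 4.29 and 4.39 in sham, a difference of 0.75), and of Utp20, a factor of small subunit rRNA processing (-0.93 and -0.50 in BDL, 0.05 and -0.06 in sham, a difference of -0.71). These 2 genes were the only ones of the 77 with an unadjusted p under 0.05 (limma), against 5.62% of all features. Their groups did not overlap. Of 14 genes of RNA polymerase I and rDNA transcription, 12 had a positive difference, with a median of 0.13. The polymerase subunit Polr1c had 3.50 and 3.24 in BDL and 2.75 and 2.96 in sham, a difference of 0.52, and Taf1d, of the promoter selectivity factor, had a difference of 0.45.

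Among 23 genes of mTORC1 signalling and TOP mRNA control the median was 0.02, with 12 positive differences. Myc, a transcription factor that drives ribosome production, had -1.79 and -1.61 in BDL, against -2.54 and -2.31 in sham. Its difference was 0.72 ± 0.21 (SE, n = 2 each, 1.65-fold; adjusted p = 0.861 by limma). Myc was the only gene of the 23 with an unadjusted p under 0.05 (limma), against 5.62% of all features. Larp4b, an RNA-binding protein that promotes mRNA stability and translation, had a difference of -0.26. The 37 initiation factors had a median of 0.09 with 25 positive differences. Eif4a1, the main RNA helicase of initiation, had 5.56 and 5.49 in BDL and 5.18 and 5.10 in sham, a difference of 0.39, and its paralog Eif4a2 had 4.18 and 4.87 in BDL and 5.08 and 5.18 in sham, a difference of -0.61. The 2 helicases lay on opposite sides of sham, each without overlap and each short of the threshold (adjusted p = 0.872, limma).

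The 12 elongation and termination factors had a median of 0.06, with -0.31 for Eif5a2 and 0.35 for the release factor Etf1. Fau and Rack1 belong to the small subunit but do not carry an Rpl or Rps symbol, and both were higher on BDL replicate 1 than on BDL replicate 2. Rack1 had 7.86 and 7.41 in BDL and 7.49 and 7.41 in sham, and Fau had 8.43 and 8.15 in BDL and 8.42 and 8.46 in sham.

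Other large complexes were read for comparison. The 77 mitochondrial ribosomal proteins had a median gap of -0.01 and were higher on BDL replicate 1 in 33 genes, with a median difference from sham of -0.06. The 84 oxidative phosphorylation subunits had a median gap of 0.10 and a median difference of -0.09. The 35 proteasome subunits had a median gap of -0.06 between the BDL animals and 0.44 between the sham animals, with a median difference of -0.15. The gap of 0.39 in the cytosolic ribosomal proteins was the largest of these 4 medians between the BDL arrays, and no test of that contrast was made. Of the lists nearer in role, the median gap was 0.07 for initiation, 0.21 for elongation and termination and 0.11 for biogenesis factors. It was 0.22 for RNA polymerase I and rDNA transcription and -0.10 for mTORC1 and TOP mRNA control. The 3 ribosomal genes tested outside the symbol rule, Fau and Rack1 among them, had a median gap of 0.44.

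**Figure D4:**
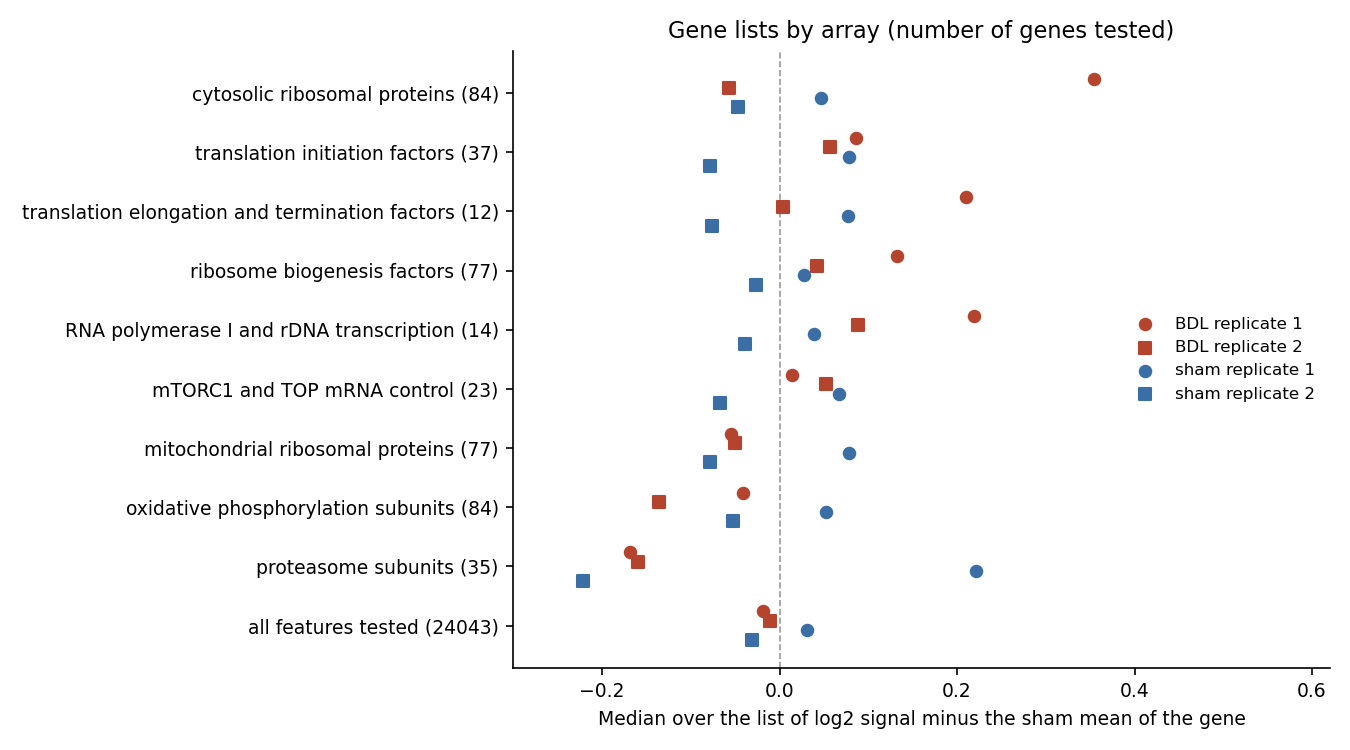
Median level of each gene list on each array, as log2 signal minus the sham mean of the gene, with the number of genes tested in brackets; red marks are BDL and blue marks sham animals, circles replicate 1 and squares replicate 2. The cytosolic ribosomal proteins stand at 0.35 on BDL replicate 1 and at -0.06 on BDL replicate 2, whereas the mitochondrial ribosomal proteins stand at -0.05 on both.

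Because the members share a mode of translational control, their transcription starts were read for the TOP tract. RefSeq promoter windows of GRCm38.p6 were given for 66 of the 86 genes. The search was for a C within 3 bases of the listed start on the transcribed strand. From that C on, itself included, at least 5 bases in a row had to be C or T. Further C or T bases could precede it, as in Rpl14 and Rplp2, and were not counted. Such a run was found in 27 of the 66 genes, or 40.9%, against 13.5% of all 27025 genes of the table. It was found in 13.0% of 69 mitochondrial ribosomal protein genes. The share was 39.0% of the large and 44.0% of the small subunit genes. The windows shown run from 10 bases before the listed start to 20 bases after it, with the counted run in capitals. The first 6 are genes described above in which the run was found, and the last 3 are genes in which it was not.
Rpl13a, chr7:45128726-45128755, minus strand: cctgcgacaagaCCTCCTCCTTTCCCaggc
Rpl14, chr9:120571507-120571536, plus strand: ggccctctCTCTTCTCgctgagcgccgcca
Rplp2, chr7:141447641-141447670, plus strand: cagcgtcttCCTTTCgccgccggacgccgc
Rps6, chr4:86857348-86857377, minus strand: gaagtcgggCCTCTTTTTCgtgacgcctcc
Rps10, chr17:27635225-27635254, minus strand: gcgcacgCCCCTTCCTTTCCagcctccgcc
Rps27, chr3:90213629-90213658, minus strand: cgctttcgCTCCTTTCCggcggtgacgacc
Rpl5, chr5:107900518-107900547, plus strand: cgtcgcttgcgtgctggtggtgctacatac
Rplp0, chr5:115559457-115559486, plus strand: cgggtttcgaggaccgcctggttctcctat
Rps3, chr7:99483690-99483719, minus strand: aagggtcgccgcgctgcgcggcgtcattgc

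Genes with and without the run had similar medians on the arrays. The 27 genes with it had a median gap between the BDL animals of 0.42 and a median difference from sham of 0.14, against 0.39 and 0.15 in the 37 tested genes without it. Rps10 and Rpl13a, which lay on opposite sides of sham, both carried it. The motif CCGGAAG, searched on both strands of the 300 bases around the start, was found in 26 of 66 cytosolic ribosomal protein genes (39.4%), in 37.7% of the mitochondrial ribosomal protein genes and in 9.93% of all genes of the table. A match is a description of these letters, and a gene without one has no such run at the start that RefSeq lists. Whether such a gene lacks a TOP tract at the start used in the kidney was not tested.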

How the data were processed

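Total kidney RNA of 2 BDL and 2 sham mice was hybridised to 1-colour arrays. The submitters' processing notes name Agilent Feature Extraction 11.0.1.1. The processed signal they deposited is, per the file headers, a linear intensity with the background subtracted and no scaling across arrays. The authors' deposited value table also holds intensities: each column was the processed signal over 1 constant per array, with medians of 0.329 and 0.330 (BDL) and 0.328 and 0.339 (sham). These constants (739 and 939.8 in BDL, 709 and 844 in sham) lay close to the 75th percentile of each array's probes, and how they were set is not given in the sources used here.

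The log2 processed signal minus the 75th percentile of each array (741 and 945 signal units in BDL, 712 and 849 in sham) was used. Control and outlier-flagged spots were left out, 13 of 55681 probes were dropped, and accessions were named through RefSeq (27229 probes). The array grid lists mm9, so coordinates are those of the GRCm38.p6 promoter table only. A probe needed signal well above background on both arrays of 1 group or more (32280 were retained), the brightest standing for its gene (24043 features). The groups were compared by the moderated two-sided test of limma 3.58.1 (R 4.3.3) with no covariate and Benjamini-Hochberg adjustment over all features. The code was tested on simulated data. With 2 arrays per group, their number limits the precision, and an exact permutation test cannot go below p = 0.333.

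The members, the lists and the rule for naming genes were chosen with earlier results of these data known. Named are up to 5 genes per subunit and direction whose groups did not overlap, 8 genes with known special roles, 8 paralog pairs, genes not retained, genes whose probes differed in sign by at least 0.5, and the 2 smallest p of each list. Genes outside it, such as Rpl6, Rpl14, Rps13, Rps23 and Rps25, were chosen after their values were seen. Counts and medians cover all members, and not every gene is reported by name here. Normexp on the spot means was not run because the mean signal was not among the columns used here, and the spot medians took its place.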

Additional observations from a re-analysis of the deposited data

Results flagged for a closer look

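Among probes that did not stand for a tested ribosomal protein gene, 3 lay at least 0.5 higher in BDL with no overlap between the groups. They were picked by these values, and no share of all probes at that size is given here. At any size of difference, 18.2% of all retained probes lay higher and 18.5% lower without overlap. Of the 169 retained member probes, 23 lay higher and 8 lower. A probe of Rpl34-ps1, left out of the members by its symbol, had levels of 5.02 and 4.54 in BDL and of 4.06 and 2.69 in sham, a difference of 1.41 (adjusted p = 0.867, limma over all retained probes). A dimmer probe of Rpl36a had 4.86 and 4.44 in BDL and 3.90 and 4.04 in sham, a difference of 0.68 (adjusted p = 0.867, limma), where the probe used gave 0.27. The dimmer probe of Rps15a had 6.22 and 5.67 in BDL and 5.22 and 5.60 in sham, a difference of 0.53 (adjusted p = 0.868, limma), where the probe used gave 0.24.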

How the results depend on the processing

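The limit of these data is 2 arrays per group. Under every alternative run, 0 ribosomal protein genes passed an adjusted p of 0.05 (limma), and the lowest adjusted p of a named gene was 0.321. The treatment protocol speaks of pairs of RNAs but does not say that equal replicate numbers mark pairs, so they were not treated as pairs. The correlation of same-numbered deviations over all features was 0.06, which cannot settle whether the animals were paired. A replicate block left the medians at 0.14 for all members, 0.12 for the large and 0.17 for the small subunit, and made 0 calls. The planned normexp on spot means was not run. Normexp on the spot medians and the inclusion of Rps4l were chosen after seeing the data.

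The median over the members kept its sign under every other setting, and it depended on BDL replicate 1. Without each array in turn it ran from -0.057 (without BDL replicate 1) to 0.35 (without BDL replicate 2), that of the large subunit from -0.062 to 0.31 and that of the small subunit from -0.041 to 0.41. The large minus small value ran from -0.10 to -0.021 and was 0.014 with the mean of all probes of a gene. The count of genes higher without overlap was 41 with quantile normalization (19.3% of all features), 17 with normexp (16.1%), 23 of 169 with all retained probes (18.2%) and 10 to 75 without 1 array (36 without sham replicate 1, against 34.9% of all features, and 75 without BDL replicate 2, against 31.9%). The count lower without overlap was 1 with quantile normalization (18.1% of all features), 8 with all retained probes (18.5%) and 3 to 42 without 1 array (8 without sham replicate 2, against 41.4% of all features, 42 without BDL replicate 1, against 31.9%, and 5 without BDL replicate 2, against 34.1%). A pair of arrays against 1 separates more often than 2 against 2 by construction. The cause was not tested, beyond the fewer arrays or more probes compared.

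Of 31 named genes tested, 18 changed sign when 1 array was left out. Their ranges were -0.11 to 0.29 for Rpl10, -0.47 to 0.33 for Rpl11, -0.63 to 0.37 for Rpl13, -0.017 to 0.41 for Rpl17, -0.32 to 0.086 for Rpl22l1, -0.19 to 0.19 for Rpl36al and -0.040 to 0.35 for Rpl39. They were -0.065 to 0.96 for Rpl3l, -0.32 to 0.29 for Rpl7, -0.33 to 0.10 for Rpl7l1, -0.15 to 0.31 for Rplp0, -0.077 to 0.62 for Rplp1 and -0.078 to 0.37 for Rplp2. They were -0.058 to 0.035 for Rps27l, -0.074 to 0.39 for Rps3a1, -0.091 to 0.85 for Rps4x, -0.089 to 0.41 for Rps6 and -0.13 to 0.50 for Rpsa. Rpl7 and Rps27l also turned to 0.035 and 0.051 with quantile normalization, to 0.0094 and 0.011 with scaling to the array median, and to 0.060 and 0.057 with normexp on the spot medians, where Rpl13 turned to 0.26. With the mean of all probes Rpl10 turned to -0.0022, Rpl11 to 0.029, Rpl13 to 0.22, Rpl17 to -0.32, Rpl7 to 0.051 and Rps3a1 to -0.14.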
